A study of Mus musculus with 4 samples.

Results

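Genes of DNA replication and mitosis were read in liver RNA from mice that had received 1 of 2 adenoviruses. A list of 50 genes was followed, and every probe set whose sole gene symbol in the platform annotation was a listed gene was taken. This gave 90 probe sets for 49 genes, out of 22626 probe sets and 12393 named genes on the array, and Ccnb1 was not analysed here. The animals were adult male C57BL6 mice, killed on day 6 after the injection. The control group carried an adenovirus for green fluorescent protein (GFP), and the other group one for lipin 1beta, a form of a phosphatidate phosphatase that also acts as a nuclear coactivator. Each group holds 2 arrays, which measured liver RNA with no cell type selected. Both groups carry adenovirus, so nothing here shows livers without it. The labels do not tie the arrays to individual animals, so p-values measure only the spread between arrays, which may be technical.

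Adult hepatocytes rarely divide, and in normal liver most cells rest outside the cell cycle. Before division a cell loads the Mcm helicase onto its origins, raises its supply of deoxynucleotides, copies its DNA, and then builds a spindle under the control of cyclin-dependent kinase 1 (Cdk1). Transcripts of the replication machinery peak around the entry into S phase, where E2F factors bind their promoters. Those of mitosis peak in G2 and M phase, where complexes with B-Myb and Foxm1 act on promoters with a cell cycle homology region, often beside CCAAT boxes bound by NF-Y. In bulk liver such transcripts can come from hepatocytes, from macrophages, lymphocytes or endothelial cells. Fewer dividing cells and less RNA per cell cannot be told apart in such samples.

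The listed genes fall into 19 replication genes, 7 genes of G1/S control and 24 mitosis genes. Their promoters, taken from RefSeq (GRCm38.p6) as 250 bases before to 50 bases after each start, were found for 41 of the 49 genes. Mcm4, Ccnd1, Ccne2, Ccna2, Aurkb, Foxm1, Kif20a and Stmn1 had no entry there. The letters searched, on both strands, were TTTGGCGC, TTTCCCGC, TTTGCCGC and TTTCGCGC for E2F, TTTGAA for the cell cycle homology region, and CCAAT, and matches of 1 motif may overlap another. An E2F match lay in 8 of 18 replication genes and 1 of 18 mitosis genes, against 2.61% of the 27025 genes in the table. A cell cycle homology match lay in 13 of 18 mitosis genes and 3 of 18 replication genes, against 20.2% of all genes. All 13 of those mitosis genes also held CCAAT, a pair seen in 7.97% of all genes. These matches describe letters in a window and were not tied to binding.

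Those of 6 genes are printed as examples with matches close to the start, as the 120 bases before it, 5′ to 3′ on the gene's strand, with E2F, cell cycle homology and CCAAT matches in capitals. Mcm6 (chr1:128359706-128359825, minus strand) is the only one of the 18 replication genes with an E2F match inside these 120 bases, where it has 3, the first 2 of them overlapping. Within the same 120 bases 7 of 18 mitosis genes held a cell cycle homology match and 6 held it with CCAAT, and the 5 printed were picked from those 6, so the sequences are not typical of their classes. Cdk1 (chr10:69352913-69353032, minus), Ube2c (chr2:164769809-164769928, plus), Cdc20 (chr4:118437344-118437463, minus), Top2a (chr11:99024190-99024309, minus) and Kif11 (chr19:37376262-37376381, plus) are the mitosis genes.
Mcm6: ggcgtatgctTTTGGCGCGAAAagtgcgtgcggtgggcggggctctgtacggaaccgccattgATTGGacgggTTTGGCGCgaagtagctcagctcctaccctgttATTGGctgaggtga
Cdk1: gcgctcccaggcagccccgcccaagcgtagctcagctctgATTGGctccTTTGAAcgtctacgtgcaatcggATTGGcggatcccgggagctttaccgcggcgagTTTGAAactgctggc
Ube2c: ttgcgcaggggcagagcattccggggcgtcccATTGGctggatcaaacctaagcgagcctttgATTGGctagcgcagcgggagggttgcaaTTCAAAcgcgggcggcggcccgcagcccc
Cdc20: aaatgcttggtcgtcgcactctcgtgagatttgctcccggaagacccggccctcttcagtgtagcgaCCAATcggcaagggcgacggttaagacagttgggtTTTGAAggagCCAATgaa
Top2a: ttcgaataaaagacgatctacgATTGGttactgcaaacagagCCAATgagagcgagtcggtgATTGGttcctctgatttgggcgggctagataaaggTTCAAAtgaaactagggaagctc
Kif11: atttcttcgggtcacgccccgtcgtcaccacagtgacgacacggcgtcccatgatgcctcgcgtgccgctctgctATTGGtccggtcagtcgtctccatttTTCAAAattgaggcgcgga

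Values are signals in arbitrary units, made with MAS5, and levels of different genes are not compared because each probe set has its own response. Differences are log2 values after signals under 119.5, the 20th percentile, were raised to that floor. The array least like the others was GFP replicate 2 (mean correlation 0.731, the others 0.781 to 0.793), and its 3' to 5' beta-actin ratio of 4.22 was above the 1.77 to 2.86 seen elsewhere. Lipin replicate 2 is labelled polyA RNA and the other 3 arrays total RNA, whereas the series' design text gives total RNA for the study, so which RNA that array measured is not settled. Of the 2 Lpin1 probe sets, the brighter had signals of 7082, 4632, 3854 and 11087 on GFP 1, GFP 2, lipin 1 and lipin 2. The dimmer had 2730, 1430, 2261 and 6719. Lipin replicate 1 thus lay within or below the control range, so each direction given for the lipin group rests on the labels.

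Of the 49 genes, 37 had a probe set bright enough to test, 16 of replication, 6 of G1/S control and 15 of mitosis. The brightest tested probe set stands for a gene. No member differed between the groups at an adjusted p under 0.05 with limma, where 0.0% of 13576 probe sets were called in either direction and the members' adjusted p ran from 0.962 to 0.999. At an unadjusted p under 0.05, limma gave 335 probe sets higher and 261 lower over the whole array, and 1 of the members', a lower one of Mcm7. Over genes this is 0 of 37 members higher and 1 lower, where all tested genes gave 2.66% and 1.97%. With 2 arrays against 2, an exact test of a single value cannot go below p = 0.333, two-sided.

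Most members read lower in the lipin group, but this turned on a single array. The median log2 difference was -0.38 over the 37 genes, with 24 below 0 (64.9%), while the median of all 8493 tested genes was 0.00 with 49.9% below 0. Without lipin replicate 2 the members' median was 0.31 and 12 lay below 0, against 45.5% of all genes. Without lipin replicate 1 it was -0.98 with 28 below 0, against 48.5% of all genes. By class, mitosis genes had a median of -0.58, replication genes -0.47 and G1/S control genes 0.29. The replication median exceeded the mitosis median by 0.12, less than the 0.33 by which that gap varied between arrays of a group (SD). Without lipin replicate 1 the gap was 0.70, and without lipin replicate 2 it was -0.046.

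**Figure D1:**
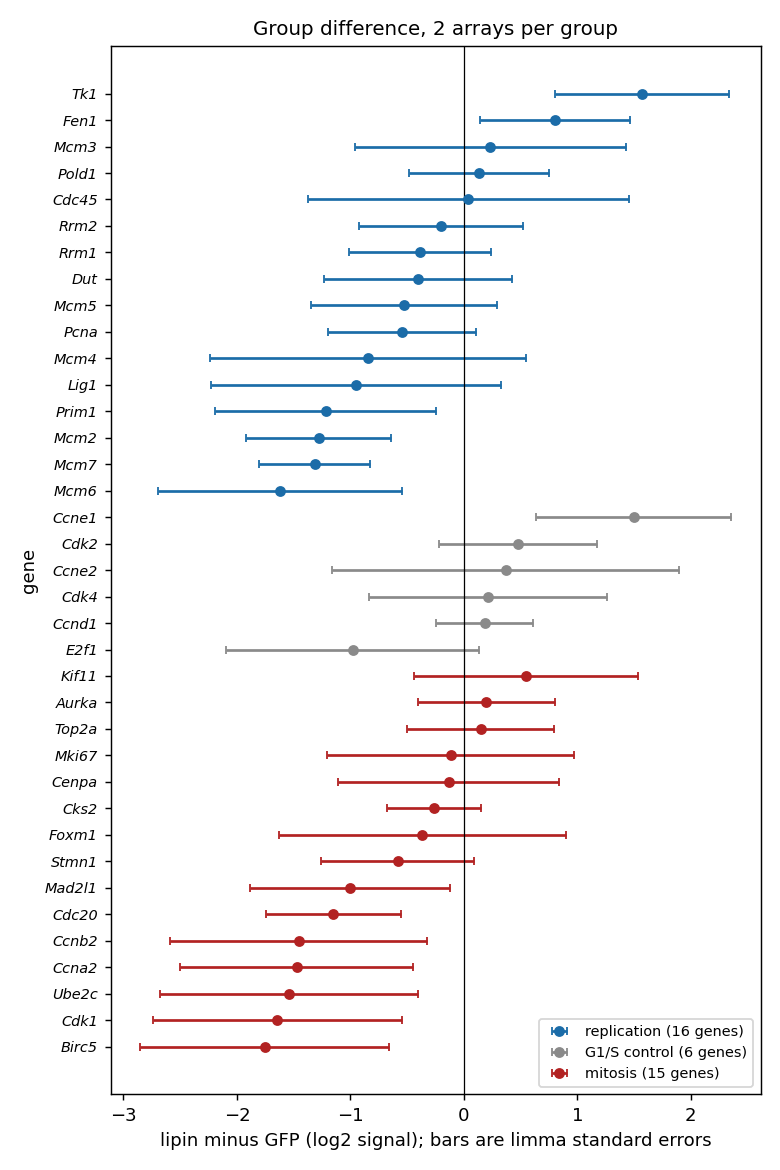
Lipin minus GFP log2 difference of the 37 tested genes, with limma standard errors as bars and 2 arrays per group. The mitosis genes (red) lie mostly below 0, from -1.76 for Birc5 to 0.55 for Kif11, and the standard errors run from 0.42 to 1.53.

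By the brightest tested probe set of each gene, the groups did not overlap in 7 members. In Tk1, Cdk2 and Kif11 both lipin arrays exceeded both GFP arrays (8.11% of the members, against 17.3% of all tested genes). In Mcm7, Dut, Ccna2 and Ccnb2 both lay below (10.8%, against 16.0%). Both shares are under those of all genes, so the members were not set apart by group in this way.

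Within each group the arrays differed in the same order for most members. GFP replicate 1 exceeded GFP replicate 2 in 30 of the 37 genes, against 44.6% of all tested genes, by a median log2 of 0.85. Lipin replicate 1 exceeded lipin replicate 2 in 29, against 52.7%, by a median of 1.18. In 24 genes replicate 1 was the higher in both groups (64.9%, against 24.8% of all genes), and in 2, Fen1 and Kif11, replicate 2 was (27.5% of all genes). The numbers do not pair the arrays by any label, and the deviations of same-numbered arrays correlated at 0.0283 over all probe sets tested. Of 14 further tested probe sets of these genes, 11 showed replicate 1 higher in both groups and 0 showed the reverse, but they share their genes and arrays with the first. Of the members' 39 probe sets too dim to test, 10 showed replicate 1 higher in both groups, near the 24.8% of all tested genes. The reverse was seen in 4 (27.5% of all tested genes). Before signals were raised to the floor the first count was 13. The 10 and the 13 of 39 are smaller shares than the 64.9% of the tested members. However, dim probe sets at the floor on both arrays of a group tie and cannot show an order. The share over all dim probe sets of the array was not taken, so no conclusion is drawn from these counts. A gap of at least 2-fold in both groups was seen in 10 of the 37 genes (27.0%, against 2.68% of all genes), 5 of replication and 5 of mitosis.

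**Figure D2:**
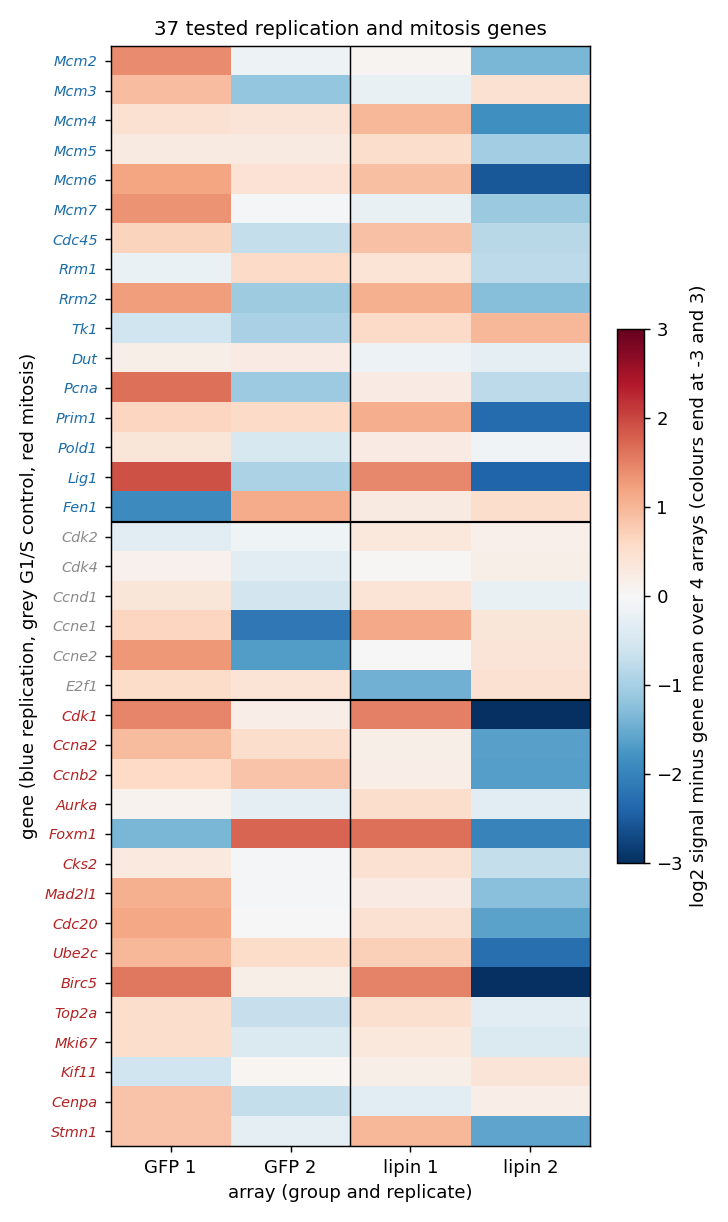
Log2 signal of each tested gene on each array, minus that gene's mean over the 4 arrays, as colour (red above, blue below). GFP 1 and lipin 1 are mostly red, and lipin 2 is the lowest array for 23 of the 37 genes.

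**Figure D3:**
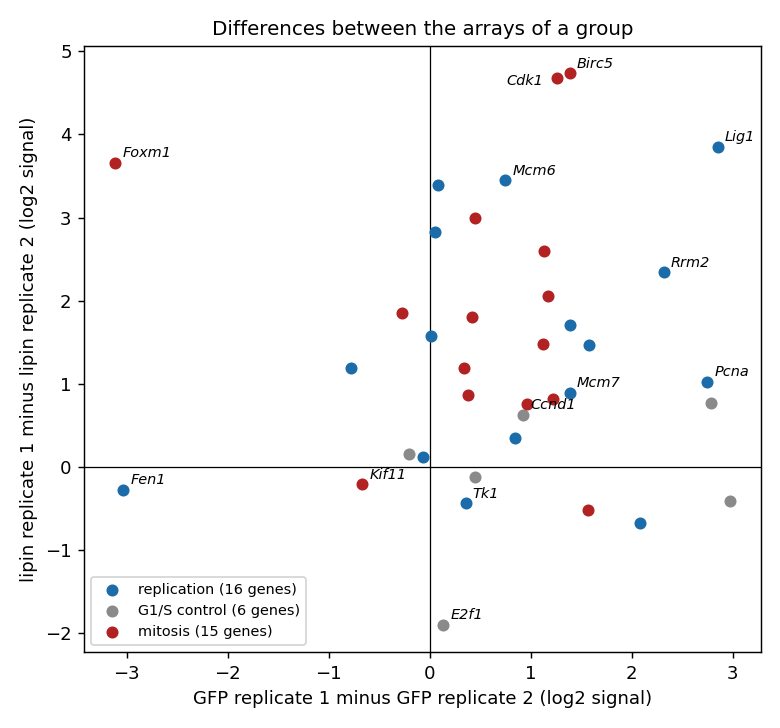
Each point is a tested gene, placed by replicate 1 minus replicate 2 in GFP (x) and in lipin (y), both in log2. The upper right part, where replicate 1 is the higher in both groups, holds 24 of 37 points.

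Lipin replicate 2 was the lowest of the 4 arrays for 12 of the 15 mitosis genes, 11 of the 16 replication genes and 0 of the 6 G1/S control genes, against 25.0% of all genes. GFP replicate 1 was the highest for 18 of the 37, against 19.7%, and lipin replicate 1 for 11, against 25.0%. GFP replicate 2 was the highest for 5 (34.2% of all genes) and lipin replicate 2 for 3 (21.1%). The remaining lowest arrays were GFP replicate 2 for 10 genes (27.3% of all genes), GFP replicate 1 for 3 (25.5%) and lipin replicate 1 for 1 (22.2%). In lipin replicate 2, 6 of the 37 genes (16.2%) lay under the floor, namely Mcm4, Mcm6, Lig1, Cdk1, Ube2c and Birc5, against 2.83% of all tested genes on that array. The only other signal under the floor among the 37 was that of Ccne2 in GFP replicate 2.

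Licensing and helicase genes, the first step of replication, were 7 of 8 testable and had a median difference of -0.84. Mcm7, a subunit of the Mcm2-7 helicase, had signals of 8766 and 3356 in GFP and of 2972 and 1602 in lipin, where each pair gives replicate 1 and then replicate 2. The groups do not overlap, yet lipin replicate 1 lay just under GFP replicate 2. The log2 difference was -1.31 ± 0.49 (SE, n = 2 per group; unadjusted p = 0.0169, limma adjusted p = 0.962), or 2.49-fold lower. The other Mcm7 probe sets gave 1.07, -0.066 and 0.041, so the lower value rests on the brightest.

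Mcm2 read 4521 and 1516 in GFP, and 1792 and 650 in lipin. Here lipin replicate 1 lay between the GFP arrays, and the difference was -1.28 ± 0.64, with a dimmer probe set at 0.047. Mcm6 read 1577 and 938 in GFP and 1305 in lipin replicate 1, but 54.7 in lipin replicate 2. The difference was -1.62 ± 1.08 with that array and 0.10 without it. A dim Mcm6 probe set read 1495 and 50.9 in GFP and 218 and 400 in lipin. It was lowest in GFP replicate 2, so it did not repeat the low signal of lipin replicate 2. Mcm5 had 971 and 964 in GFP and 1156 and 389 in lipin (-0.53 ± 0.82). This is the shape of the tested Mcm6 probe set on a smaller scale. Mcm4 gave -0.84 and 0.35 on its 2 probe sets, both with lipin replicate 1 highest and lipin replicate 2 lowest.

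Mcm3 was read by 5 probe sets that did not move alike. The tested one read 950 and 224 in GFP and 429 and 686 in lipin (0.23 ± 1.19). Among the dim ones, one read 1148 and 966 in GFP and 65.7 and 69.6 in lipin, a gap between groups wider than on the other probe sets. Cdc45, which completes the active helicase, read 643 and 246 in GFP and 736 and 226 in lipin, nearly the same pair of values in each group (0.04 ± 1.41). Cdc6, which loads the helicase, read between 22.4 and 69.1 on all arrays, under the floor.

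Genes of nucleotide supply split. Tk1, the thymidine salvage kinase of S phase, read 536 and 419 in GFP and 1209 and 1640 in lipin. It was among the 3 members with both lipin arrays on top, at 1.57 ± 0.77 or 2.97-fold higher (unadjusted p = 0.0584, limma adjusted p = 0.962), and stayed between 1.35 and 1.79 with any array left out. Rrm2, the small subunit of ribonucleotide reductase, read 7580 and 1522 in GFP, and 6653 and 1312 in lipin. Replicate 1 was 4.98-fold over replicate 2 in GFP and 5.07-fold in lipin, and the difference between groups was -0.20 ± 0.72. A second tested Rrm2 probe set read 936 and 325 in GFP and 560 and 26.9 in lipin (-1.09 ± 1.52). A dim one read 695 and 57 in GFP and 1344 and 132 in lipin. Both had replicate 1 the higher in each group, but not the same ratios.

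Rrm1, the large subunit of the same enzyme, did not follow Rrm2 in GFP, where it read 1145 and 1960, but did in lipin, with 1732 and 760. Its second probe set had 1340 and 420 in GFP and 1950 and 688 in lipin, an order like that of Rrm2, and the 2 differences were -0.38 and 0.63. Dut, which clears dUTP, read 814 and 854 in GFP and 654 and 603 in lipin, a narrow gap between groups (-0.41 ± 0.83). A dim Dut probe set read 153 and 1727 in GFP and 594.5 and 105 in lipin, so the groups overlapped there. Tyms, thymidylate synthase, was too dim to test on its 3 probe sets, each of which had its highest signal in lipin replicate 1 (938, 618 and 492) and its lowest in lipin replicate 2 (30.9, 39.0 and 15.8).

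Among polymerases and the enzymes that finish Okazaki fragments, Pcna, the sliding clamp, read 12647 in GFP replicate 1 and 1886 in GFP replicate 2, and 4777 and 2351 in lipin. The lipin arrays lay between the GFP arrays, and the difference of -0.54 ± 0.65 was 0.83 without GFP replicate 1. Lig1, which seals the fragments, read 2362 and 327 in GFP and 1726 and 115 in lipin. Replicate 1 was well above replicate 2 in both groups, and the difference was -0.95 ± 1.28. Prim1, a primase subunit, read 1321 and 1250 in GFP, 1787 in lipin replicate 1 and 171 in lipin replicate 2 (-1.22 ± 0.97), or 0.48 without the last. Its second probe set gave -2.08 with lipin replicate 2 again lowest.

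Fen1, the flap nuclease, was the only tested replication gene with replicate 2 the higher in both groups. Its signals were 1314 and 10747 in GFP and 5952 and 7203 in lipin (0.80 ± 0.66). GFP replicate 1, the highest array for 8 of 16 replication genes, was thus lowest here. These signals come from a probe set that can match several transcripts. The other Fen1 probe set was dim, at 82.3 and 37.1 in GFP and 197 and 23.6 in lipin. It lay under the floor on 3 arrays, and its signals before the floor had replicate 1 the higher in both groups. Pold1, the catalytic subunit of polymerase delta, varied little, with 1541 and 857 in GFP and 1422 and 1115 in lipin (0.13 ± 0.62). Pola1, of polymerase alpha, was too dim to test, but both lipin signals (968 and 679) exceeded both GFP signals (187 and 116).

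**Figure D4:**
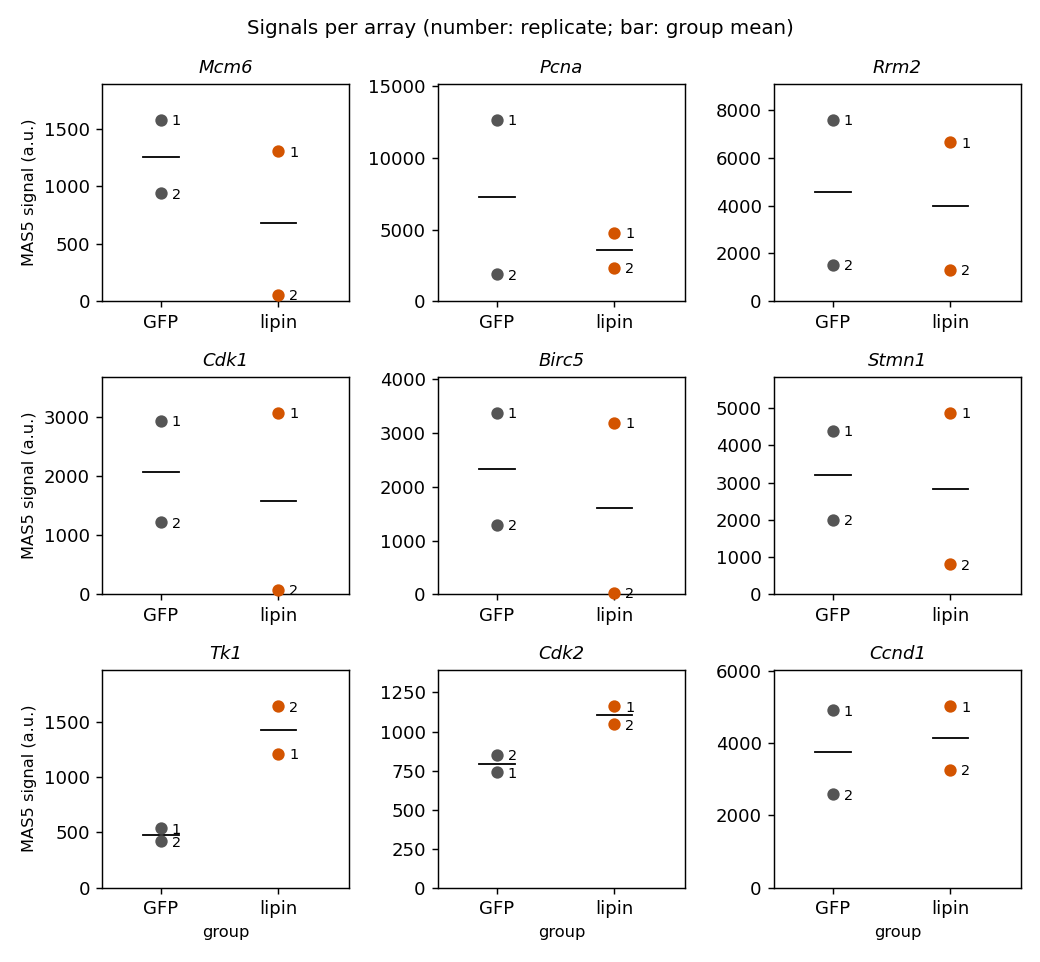
MAS5 signals of 9 genes on each array in arbitrary units, with replicate numbers beside the points and bars at the group means. Replicate 1 lies above replicate 2 in both groups for Mcm6, Pcna, Rrm2, Cdk1, Birc5, Stmn1 and Ccnd1, whereas Tk1 and Cdk2 separate by group.

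The 6 tested genes of G1/S control did not share the low signals of lipin replicate 2. Ccnd1, cyclin D1, which drives hepatocytes out of rest, read 4914 and 2585 in GFP and 5025 and 3258 in lipin (0.18 ± 0.42). Its other probe sets gave 0.23 and 0.43, and none of the 3 placed lipin replicate 2 under GFP replicate 2. Ccne1, cyclin E1, read 1523 and 221 in GFP and 2132 and 1257 in lipin. Its difference was 1.50 ± 0.86, and 0.10 without GFP replicate 2. Cdk2, the partner of cyclin E, read 739 and 849 in GFP and 1162 and 1047 in lipin, a small gap with no overlap (0.48 ± 0.69).

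Cdk4, the partner of cyclin D, gave 0.21 on its brightest probe set, which read 587 and 429 in GFP and 558 and 608 in lipin. A second one read 408 and 96.7 in GFP and 1148 and 1072 in lipin, or 2.33 ± 1.18 (unadjusted p = 0.0669), so the 2 differ in size and share the sign. E2f1, the transcription factor of S phase genes, read 786 and 714 in GFP, 196 in lipin replicate 1 and 733 in lipin replicate 2. Here lipin replicate 1 was the low array, unlike in the replication genes, and the difference was -0.98 ± 1.12. Ccne2 gave 0.37 ± 1.53, and Chek1, a checkpoint kinase, was too dim on its 4 probe sets, which read from 13.4 to 632. Lipin replicate 2 was the lowest Chek1 array on the probe sets that read 13.4 and 30.7 there. It was the highest on another, at 397, and on the last both lipin arrays read 63.5.

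By the brightest tested probe set of each gene, mitotic entry genes had lipin replicate 2 as the lowest array in 6 of 6 tested members. Cdk1 itself read 2933 and 1223 in GFP and 3068 and 78.9 in lipin. Both the highest and the lowest of its signals were thus lipin arrays, and the difference was -1.65 ± 1.10 with all arrays and 0.70 without lipin replicate 2. Ccna2, cyclin A2, read 1147 and 858 in GFP and 668 and 191 in lipin (-1.47 ± 1.03). Its second probe set read 1536 and 149 in GFP and 1589 and 99.5 in lipin, a difference of only -0.13. Ccnb2, a mitotic cyclin, read 791 and 954 in GFP and 602 and 166 in lipin (-1.46 ± 1.13).

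Cks2, a small subunit of Cdk1 complexes, had the smallest standard error of this class, with 6115 and 4829 in GFP and 6822 and 3003 in lipin (-0.26 ± 0.42). Its second probe set gave 0.04 and was lowest in GFP replicate 2, at 1736 against 1739 in lipin replicate 2. Aurka, a spindle pole kinase, read 1356 and 1038 in GFP and 1833 and 1009 in lipin (0.20 ± 0.60), so its groups overlapped. Foxm1, a transcription factor of mitotic genes, read 251 and 2175 in GFP and 2037 and 161 in lipin. It was thus high in 1 array of each group, with opposite replicate numbers (-0.37 ± 1.26). Dim Foxm1 probe sets were lowest in lipin replicate 2 (56.2), highest there (307) or neither (103). Plk1 and Aurkb, kinases of mitosis, were too dim to test, with signals of 142 to 667 and of 23.7 to 725. Plk1 was lowest in GFP replicate 2 (142) and read 520 in lipin replicate 2. Both Aurkb probe sets were lowest in GFP replicate 2 (111 and 23.7).

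The 3 tested checkpoint and anaphase-promoting complex genes were all lowest in lipin replicate 2 and highest in GFP replicate 1. Cdc20, the activator of that complex, read 6516 and 2894 in GFP and 3985 and 960 in lipin (-1.15 ± 0.59, unadjusted p = 0.0719, limma adjusted p = 0.962). A second Cdc20 probe set read 2780, 1404, 2358 and 1030 in the same order of arrays, or -0.34, with the same ranking. Ube2c, its ubiquitin-conjugating enzyme, read 1148 and 842 in GFP, 953 in lipin replicate 1 and 99.2 in lipin replicate 2 (-1.54 ± 1.14). Mad2l1, which holds Cdc20 back until chromosomes attach, read 1557 and 715 in GFP and 879 and 315 in lipin (-1.0 ± 0.88). The checkpoint kinases Bub1, Bub1b and Ttk were too dim to test. Bub1b had its highest signal, 1021, in lipin replicate 1 and its lowest, 96.4, in lipin replicate 2. A Bub1 probe set was lowest in lipin replicate 2, at 98.1, and another was highest there, at 508. Ttk read 55.3 and 185 in GFP and 65.2 and 50.8 in lipin.

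Chromosome and spindle genes were more mixed. Birc5, survivin, of the chromosomal passenger complex, read 3365 and 1287 in GFP, 3180 in lipin replicate 1 and 33.9 in lipin replicate 2, much like Cdk1. Its difference of -1.76 ± 1.10 turned to 0.61 without that array. Stmn1, a microtubule destabilizer, read 4392 and 2007 in GFP and 4865 and 807 in lipin (-0.58 ± 0.68), or 0.71 without lipin replicate 2. Mki67, the Ki-67 antigen used to mark dividing cells, read 771 and 396 in GFP and 662 and 392 in lipin (-0.12 ± 1.09). Its 2 groups gave nearly the same pair of values, and lipin replicate 2 was not far under GFP replicate 2.

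Top2a, topoisomerase II alpha, read 1777 and 761 in GFP and 1710 and 975 in lipin (0.15 ± 0.65), again with replicate 1 the higher in both groups. Kif11, the motor that separates spindle poles, read 385 and 612 in GFP and 659 and 761 in lipin (0.55 ± 0.99), and both lipin arrays were on top. A dim Kif11 probe set read 37.2 and 45.2 in GFP and 891 and 45.3 in lipin. Another read 219 and 73.7 in GFP and 62.9 and 125 in lipin. On neither were the groups apart once signals were raised to the floor. Cenpa, the centromeric histone, read 1130 and 381 in GFP and 499 and 715 in lipin (-0.14 ± 0.98). Among the genes too dim to test, Kif20a, a cytokinesis motor, read 1020 and 86.9 in GFP and 590 and 109 in lipin, and Cenpe, a kinetochore motor, 134 and 1260 against 469 and 26.3. Hmgb2, a chromatin protein, read between 139 and 566 on its 2 probe sets, both highest in lipin replicate 2 (566.3 and 397.5). All 5 printed mitosis promoters held a cell cycle homology match and CCAAT. Those of Cdk1, Ube2c and Cdc20 belong to genes lowest in lipin replicate 2. That of Top2a belongs to a gene lowest in GFP replicate 2, and that of Kif11 to a gene lowest in GFP replicate 1. These lowest arrays are those of the brightest tested probe sets. Hmgb2, the gene of the 6 with both matches whose promoter was not printed, was too dim to test and highest in lipin replicate 2.

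By class and array, mitosis genes had a median deviation from their own mean of 0.85 and -0.010 in GFP replicates 1 and 2, and of 0.46 and -1.59 in lipin replicates 1 and 2. Replication genes had 0.66, -0.092, 0.46 and -0.94 in the same order. The medians of all tested genes lay between -0.0028 and 0.11. Replication and mitosis genes thus ranked the 4 arrays alike, and G1/S control genes, at 0.47, -0.44, 0.18 and 0.27, did not.

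**Figure D5:**
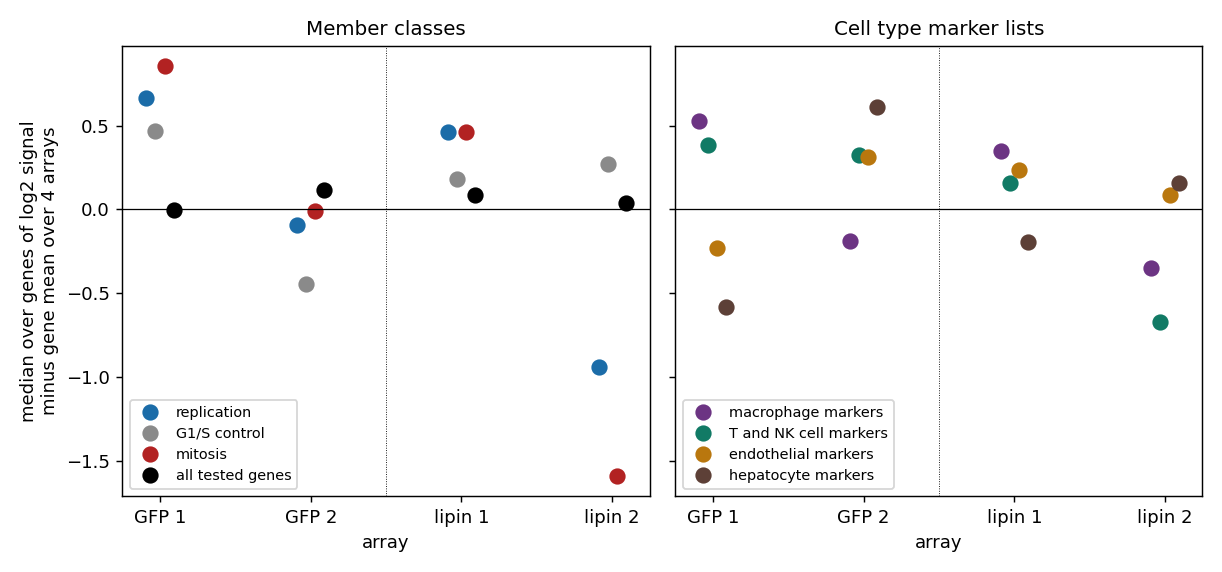
Median, over the genes of a list, of the log2 signal minus the gene's mean over 4 arrays, for the member classes (left) and cell type markers (right). Mitosis genes are at 0.85 in GFP 1 and -1.59 in lipin 2, and macrophage markers at 0.53 and -0.35.

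Markers of other cells moved partly with the members. Macrophage markers, 6 of 8 tested, had replicate 1 above replicate 2 in both groups in 5, with a summed signal of 48393 and 26538 in GFP and 43894 and 27231 in lipin. Clec4f, which marks resident Kupffer cells, ran against this at 210 and 1245 in GFP and 1413 and 2136 in lipin, and Itgam and Marco were too dim to test. T and NK cell markers summed to 6102 and 6384 in GFP and 4623 and 5122 in lipin, with 5 of 12 tested, and Cd3d, Cd3e, Cd3g, Cd4, Cd8b1 and Klrd1 too dim. The sum and the single markers differ in order: 4 of the 5 tested (Nkg7, Cd8a, Gzma and Gzmb) were lowest in lipin replicate 2, and 3 of the 5 had both lipin arrays below both GFP arrays. Their median deviation was 0.16 in lipin replicate 1 and -0.67 in lipin replicate 2, and the median lipin minus GFP difference was -1.17. Gzmb, a granzyme of cytotoxic cells, read 956, 492, 777 and 74.8 in the order GFP 1, GFP 2, lipin 1 and lipin 2. Hepatocyte markers were all 7 tested, and their summed signal was lowest in GFP replicate 1, at 2145963 against 2912933 to 4754612. All 7 had replicate 2 the higher in both groups, an order seen in 27.5% of all tested genes. Their median log2 of replicate 1 minus replicate 2 was -1.15 in GFP and -0.19 in lipin. Summed signals on GFP 1, GFP 2, lipin 1 and lipin 2 were 7719, 11890, 8730 and 10160 for endothelial markers, 2365, 3538, 1456 and 1742 for B and plasma cell markers, and 6127, 4583, 3990 and 3604 for neutrophil markers. They were 2050, 4247, 2706 and 1081 for erythroid, 2427, 3217, 4329 and 4072 for stellate cell and 726, 2409, 1116 and 1754 for cholangiocyte markers, so of these 6 sums that of the neutrophil markers alone was higher in replicate 1 in both groups. Of the 4 tested neutrophil markers, 1 had that order by itself. The sums include probe sets under the floor. On GFP 1, GFP 2, lipin 1 and lipin 2 these were 4, 2, 4 and 3 of 11 T and NK cell markers. They were 2, 1, 0 and 2 of 4 cholangiocyte markers, and 0 of 7 hepatocyte markers on every array. The part of these cells, of RNA quality and of the polyA label in the differences between arrays was not tested.

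Further genes of the pathway, from lists of the same processes, were counted in the same way. Of 40 further replication genes, 23 were tested, with 0 passing limma in either direction, a median difference of -0.16, and 9 (39.1%) with replicate 1 the higher in both groups. Of 40 further mitosis genes, 26 were tested, with 0 passing, a median of -0.22 and 7 (26.9%) so ordered, close to the 24.8% of all genes. Whether these shares differ from that of the members was not tested. By smallest p, Orc2 of the origin recognition complex read 384 and 80.1 in GFP and 1103 and 1341 in lipin (2.50 ± 1.14), and Rfc1, of the clamp loader, 1747 and 1265 against 901 and 219 (-1.74 ± 0.85). Mcm10, a replication initiation factor, gave 0.73 ± 0.38, Cenpf, a kinetochore protein, -2.13 ± 1.10, Spc25 of the Ndc80 complex 1.82 ± 0.95, and Pttg1, securin, -1.02 ± 0.58.

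Among cell cycle inhibitors and pocket proteins, 8 of 11 were tested, with 0 passing and a median of 0.10. Cdkn1a, the inhibitor p21, read 8980 and 1914 in GFP and 3349 and 467 in lipin. This inhibitor ranked the arrays as Cdc20 did, highest in GFP replicate 1 and lowest in lipin replicate 2, at -1.73 ± 0.80 (unadjusted p = 0.0473, limma adjusted p = 0.962). Cdkn1c, the inhibitor p57, gave -1.84 ± 0.98 and Cdkn2c, an inhibitor of Cdk4 and Cdk6, 0.37 ± 0.52. Of the E2F and related factors, 8 of 16 were tested with 0 passing and a median of -0.089. Ccnd3, a cyclin D, gave 1.63 ± 1.07, E2f5 1.78 ± 1.27 and Cdk6 -1.68 ± 1.49.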

How the data were processed

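The series holds 4 one-colour Affymetrix arrays of mouse liver, grouped by sample title. The authors deposited linear intensity signals for every probe set, and MAS5 is named in the submitters' processing notes without its version or scaling target. Each array had a 2% trimmed mean of 1501, so the signals were used unchanged. No detection calls were used.

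After 64 control probe sets were removed, the 20th percentile of all signals (119.5) served as a floor, and on the log2 scale the 13576 probe sets whose mean reached the 40th percentile were compared between groups with limma 3.58.1 in R 4.3.3 (lmFit, eBayes with an intensity trend, two-sided, Benjamini-Hochberg over all 13576, threshold 0.05). The fit had 2 residual and 12.7 prior degrees of freedom. In simulated data it called only a minority of genes given a 4-fold change, so the lack of calls does not show that members were equal between groups. Differences of dim genes are understated by the floor. Members' standard errors had a median of 0.88 against 0.66 over all tested genes.

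Gene names came from the platform annotation; all 49 members' symbols matched RefSeq by Entrez identifier. The brightest tested probe set stood for each of 8493 genes. The members, classes, pathway and marker lists were chosen with earlier results of these data known. In full are given up to 4 members per role with the smallest p, plus Mki67, Pcna, Top2a, Ccnd1 and Cdk1, and up to 3 further pathway genes per list; other members were described to account for all. The comparison between the arrays of a group was chosen after the data were seen. Promoters came from RefSeq, GRCm38.p6. Alternatives covered scaling, floor, filter, variance model, replicate block, left-out arrays and the choice of probe set.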

Additional observations from a re-analysis of the deposited data

How the results depend on the processing

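With limma, 0 members passed in any of the 14 alternative fits. Over all probe sets, leaving out each array gave 0 to 7 higher and 0 to 6 lower. The replicate number as a block gave 34 higher and 18 lower and 0 members (lowest limma adjusted p 0.139). No label pairs the same-numbered arrays. Their deviations correlated at 0.0283 over all probe sets tested, a value that cannot decide whether they were paired for a part of the genes. Where 1 array of a group remained, it was assumed to vary like the arrays of the other group. Leaving out each array moved the median difference of the members from -0.98 to 0.31, of mitosis genes from -1.88 to 0.33, of replication genes from -1.18 to 0.28, and the gap between them from -0.046 to 0.70. Members below 0 numbered 12 to 29 of 37 with an array left out, and 14 of 22 with a filter at the 60th percentile, where fewer genes are tested. Replicate 1 was the higher in both groups in 24 to 26 of 37 members under quantile normalization, median centring and other floors, 28 of 49 without a filter, 17 of 22 with the stricter filter and 23 of 35 without probe sets that can match several transcripts; these counts were chosen after seeing the data. Without those probe sets Mcm7 stood at 1.07 and Mcm2 at 0.047, and the mean of its probe sets put Rrm1 at 0.12. Of 28 members given in full, 15 changed sign with an array left out: Birc5 (-4.12 to 0.61), Ccnd1 (-0.28 to 0.65), Cdk1 (-3.99 to 0.70), Cks2 (-0.86 to 0.33), Fen1 (-0.71 to 2.32), Lig1 (-2.88 to 0.97), Mcm5 (-1.31 to 0.26), Mcm6 (-3.35 to 0.10), Mki67 (-0.60 to 0.36), Pcna (-1.92 to 0.83), Prim1 (-2.91 to 0.48), Rrm1 (-0.98 to 0.21), Rrm2 (-1.37 to 0.97), Stmn1 (-1.88 to 0.71) and Top2a (-0.46 to 0.76). The cause was not tested. With 2 arrays per group and no detection calls, signal over background of a single probe set is not known.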
